A study of Mus musculus with 12 samples.

Results

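The genes described here were those whose mRNA was present in every *RPL10 R98S* clone and nearly absent from every *RPL10 WT* clone. The genes were selected on their mRNA levels: a gene was taken when its normalized mRNA count was at least 15 in all 3 R98S clones and at most 6 in all 3 WT clones. In the mRNA-sequencing table, 42 of 41255 genes met both limits. *Bbs7* was left out, as were symbols that begin with Zfp, Slc, Kif or Cd and a digit, and only *Bbs7* was removed by this, which left 41 genes. Since both genotypes entered this choice, their mRNA difference is given as a description without a test. With the genotypes exchanged, the same limits found 18 genes.

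The libraries came from Ba/F3 cells, a mouse lymphoid line that depends on interleukin-3, engineered to express human RPL10 from a retroviral cDNA. The transgene encoded either the wild-type protein (WT) or the leukemia-associated mutant in which arginine 98 is replaced by serine (R98S), and the endogenous mouse *Rpl10* was knocked down with a short hairpin RNA in both genotypes. Each culture was 1 monoclonal line, and clones 11, 13 and 35 carried R98S while clones 28, 29 and 36 carried WT. Every clone gave 1 mRNA-sequencing library and 1 ribosome footprinting library (sequencing of ribosome-protected mRNA fragments, RPF), after 5 min in 100 μg/ml cycloheximide. With 1 culture per clone, the spread between samples is the spread between clones of a genotype.

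RPL10 is a protein of the large ribosomal subunit that is added late in its assembly, and the R98S substitution recurs in T-cell acute lymphoblastic leukemia. Genes specific to other tissues are usually silent in a given cell line, often with few or no reads in mRNA sequencing. Ribosome footprints report which of the transcripts present are being translated, and they were not used to choose the genes.

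The mRNA libraries held 20576796 to 22178094 counted reads in R98S clones and 6617457 to 23136595 in WT clones, the shallowest being WT clone 28. One read was worth 2.69 normalized counts in WT clone 28 and 0.784 to 0.860 in the other mRNA libraries, so that the limit of 6 allowed at most 2 reads in WT clone 28 and 7 in WT clones 29 and 36. Footprint libraries held 3477723 to 10883086 reads. Of 8 markers of Ba/F3 cells, 7 had a mean of at least 10, with *Kit* at 0 in every library. The 8 summed to 102260 to 124189 in R98S and 50005 to 96923 in WT clones. *Csf2rb* had means of 60004 and 33338, *Csf2rb2* 48611 and 25394, *Ptprc* 4393 and 8109 and *Ikzf1* 6.28 and 32.9. *Il3ra*, *Spi1* and *Runx1* had lower means in R98S clones. Markers of fibroblasts (summed level 3.44 to 12.7 in R98S and 0 to 0.825 in WT clones) and epithelium (0 to 2.46 and 0 to 2.69) were near 0, and none of the 4 in either list had a mean of 10. The 4 macrophage markers summed to 518 to 1179 in R98S and 4895 to 6755 in WT clones. *Emr1*, which encodes F4/80, led the list (means 754 and 5956). *Lyz2* was at 0.573 and 23.9, with WT clone 28 at 0. *Cd68* was similar in both genotypes (means 125 and 133), and *Csf1r* was near 0 (means 0 and 1.62). The 7 B lineage markers summed to 1350 to 1670 in R98S and 896 to 1155 in WT clones. The 4 erythroid markers summed to 205 to 394 and 191 to 381, with *Hba-a1* at means of 2.99 and 78.3. The part of these differences in the values of the members was not tested.

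RefSeq promoter windows (GRCm38.p6, 250 bases before to 50 after each annotated start) were found for 31 of the 41 genes, 37 windows in all. Those of 6 genes are shown here, chosen for mRNA level, position or footprints and not for their sequence. *Lpgat1*, *Dlg3* and *Cytip* had the 3 highest R98S levels among genes without a read in any WT library, *Fitm1* and *Emc9* are close neighbors, and *Cspg4* is the only member with listed footprints. Each is written 5′ to 3′ on the strand of the gene, with CpG dinucleotides in capitals.
*Lpgat1* (chr1:191717774-191718073, plus strand): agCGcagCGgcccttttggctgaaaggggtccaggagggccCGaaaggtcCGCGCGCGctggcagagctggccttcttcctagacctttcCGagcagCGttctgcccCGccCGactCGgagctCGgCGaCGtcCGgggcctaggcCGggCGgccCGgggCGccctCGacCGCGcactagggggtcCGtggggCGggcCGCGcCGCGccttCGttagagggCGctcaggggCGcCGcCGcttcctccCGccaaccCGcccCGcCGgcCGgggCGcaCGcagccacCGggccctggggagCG
*Dlg3* (chrX:100777021-100777320, plus strand): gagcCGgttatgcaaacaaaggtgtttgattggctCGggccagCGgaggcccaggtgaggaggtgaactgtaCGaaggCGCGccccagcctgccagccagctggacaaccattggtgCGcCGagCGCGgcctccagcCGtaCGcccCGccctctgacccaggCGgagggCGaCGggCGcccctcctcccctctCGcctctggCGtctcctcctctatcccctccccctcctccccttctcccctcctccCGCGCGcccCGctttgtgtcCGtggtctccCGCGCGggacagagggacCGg
*Cytip* (chr2:58160073-58160372, minus strand): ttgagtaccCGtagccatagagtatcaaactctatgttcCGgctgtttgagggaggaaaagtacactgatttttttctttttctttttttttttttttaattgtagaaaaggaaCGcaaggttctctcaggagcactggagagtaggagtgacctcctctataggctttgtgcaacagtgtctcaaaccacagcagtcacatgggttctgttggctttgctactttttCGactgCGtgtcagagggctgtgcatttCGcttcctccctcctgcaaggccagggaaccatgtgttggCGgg
*Fitm1* (chr14:55575424-55575723, plus strand): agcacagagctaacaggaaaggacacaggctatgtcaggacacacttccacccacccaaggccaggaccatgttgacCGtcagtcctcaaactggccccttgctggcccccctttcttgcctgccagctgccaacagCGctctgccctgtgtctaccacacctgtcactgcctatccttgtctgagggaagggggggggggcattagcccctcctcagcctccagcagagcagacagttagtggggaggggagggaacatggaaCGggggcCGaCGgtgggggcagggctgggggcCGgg
*Emc9* (chr14:55585205-55585504, minus strand): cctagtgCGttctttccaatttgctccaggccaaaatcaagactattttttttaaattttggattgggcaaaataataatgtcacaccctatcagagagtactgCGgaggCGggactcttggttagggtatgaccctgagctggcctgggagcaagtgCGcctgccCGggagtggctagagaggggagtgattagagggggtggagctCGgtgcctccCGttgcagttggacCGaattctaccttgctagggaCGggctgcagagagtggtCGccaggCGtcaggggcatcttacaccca
*Cspg4* (chr9:56864854-56865153, plus strand): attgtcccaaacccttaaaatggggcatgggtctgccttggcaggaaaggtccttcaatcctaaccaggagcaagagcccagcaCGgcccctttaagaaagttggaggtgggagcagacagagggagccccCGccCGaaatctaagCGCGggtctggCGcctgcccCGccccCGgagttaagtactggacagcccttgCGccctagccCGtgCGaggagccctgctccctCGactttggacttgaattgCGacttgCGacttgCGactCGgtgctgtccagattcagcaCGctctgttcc

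The windows ranged from CpG-dense to CpG-poor, with 3 to 43 CpG over all member windows. *Lpgat1* had 43 CpG in the window shown, the most of any member, and 39 in a second window beside it, whereas *Cytip* had 7 and *Fitm1* 6. The *Dlg3* window shown had 28 and a second *Dlg3* window, which was not CpG-rich by the limits below, had 9. *Cspg4* had 17 and *Emc9* 11. Over the 37 windows the median was 9 CpG, against 7 over 32851 windows of all genes and 20 over 10604 windows of tested genes outside the set. A window with more than 50% G+C and an observed to expected CpG ratio above 0.6 was called CpG-rich, which held for 11 member windows (29.7%), for 33.3% of all windows and for 66.4% of windows of tested genes outside the set. These shares are a description without a test.

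Letters of 6 short motifs were counted on both strands. GGGCGG, the GC box, was in 20 of 37 member windows (54.1%) and in 35.7% of all windows. CCAAT was in 8 (21.6%, against 37.4%), TATAAA in 3 (8.11%, against 13.6%) and TGANTCA, the AP-1 motif, in 1 (2.70%, against 7.81%), that of *Gm973*. AGATAA, a motif of the GATA factors, was in 6 (16.2%, against 11.2%), and the E-box CANNTG in 31 (83.8%, against 72.3%). No motif was shared by all members, and a match describes letters only. The motifs were not counted in the windows of tested genes outside the set, which were richer in CpG. These shares are therefore set only against all windows.

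Across the set, the mean R98S level ranged from 17.3 (*Mpzl2*) to 389.9 (*Lpgat1*) normalized counts, with a median of 59.8. The 41 values summed to 3945, 3505 and 4907 in R98S clones 11, 13 and 35 and to 43.0, 52.8 and 42.3 in WT clones 28, 29 and 36. These are modest levels, between the 46.1 and the 64.1 percentile of the 19930 genes with a read in any R98S library. Per kilobase of exon, the members had a median R98S level of 17.6 (2.10 for *Trio* to 207 for *Lgals7*), and the median over 10820 tested genes was 145.

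**Figure D1:**
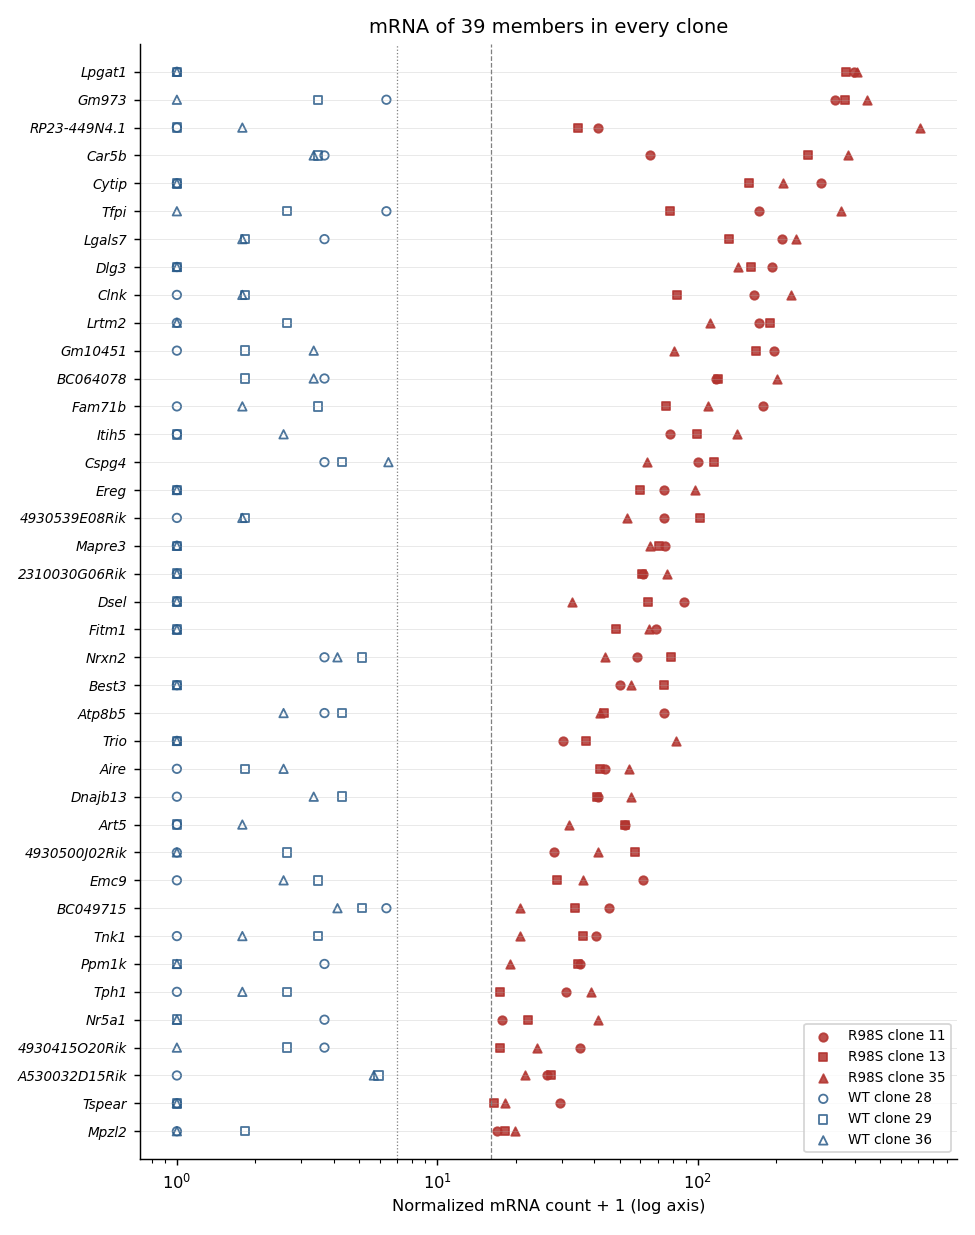
Normalized mRNA count plus 1 (log axis) of 39 of the 41 genes, ordered by mean R98S level, without 2 genes that are not reported here; filled red symbols are R98S clones, open blue symbols WT clones, the dashed line marks the limit of 15 and the dotted line the limit of 6. By construction no R98S point lies left of the dashed line and no WT point right of the dotted line, and for 11 genes all 3 WT points lie at 0 counts.

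In the WT libraries, 11 members had no read, 15 had 1 to 3 reads over the 3 libraries and 15 had more, up to 12. A fold against 0 reads has only a lower bound, which was computed against 3 reads over the WT group, or 1.05 normalized counts. The bound ran from at least 19.5-fold higher for *Tspear* to at least 372-fold higher for *Lpgat1*, and it covers counting error only. The limits were not sharp gaps in the data. Just inside were *Tspear* and *Mpzl2*, whose lowest R98S values were 15.6 and 15.9, and *Cspg4* and *Gm973*, whose highest WT values were 5.49 and 5.37. Just outside were *Cemip* and *Cnga3* (lowest R98S values 14.3 and 13.8) and *Fbxo27* and *Nlrx1* (highest WT values 6.60 and 7.05).

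By role, from textbook knowledge, 5 members act in signaling or immune regulation, 3 in lipid or membrane handling, 9 are secreted, on the cell surface or in matrix synthesis, 5 belong to junctions, synapses or the cytoskeleton, 8 are other enzymes, channels, receptors or chaperones, and 11 are uncharacterized or non-coding.

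Of the signaling genes, *Cytip* encodes a scaffold that binds cytohesins, the exchange factors of ARF GTPases, and is best known from lymphocytes. It lies on chromosome 2 (mm10, 58129137 to 58195532) and had 295, 156 and 211 normalized counts in R98S clones 11, 13 and 35, with no read in a WT clone. *Clnk* (chromosome 5, 38706462 to 38876812) encodes a SLP-76 family adaptor of immunoreceptor signaling. It had 164, 81.9 and 226 in the R98S clones and 0, 0.825 and 0.784 in WT clones 28, 29 and 36. Clone 13 was the lowest R98S clone for both of these genes. *Tnk1*, a non-receptor tyrosine kinase of the ACK family, had 39.7, 35.2 and 19.8. *Aire*, the regulator that lets thymic epithelium express tissue-restricted antigens, was similar in the clones at 42.9, 40.9 and 53.3, against at most 1.57 in a WT clone. Of 6 T-cell markers, only *Cd3d* had a mean of at least 10 in either genotype, and the list summed to 57.6 to 94.5 in R98S and 17.3 to 56.4 in WT clones. *Cd4* and *Cd8a* were at most 1.59 in any clone. The part of T-cell-like expression in the values of *Clnk* was not tested.

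The lipid genes included the member with the highest mean. *Lpgat1* (chromosome 1, 191717834 to 191784255) encodes an acyltransferase of lysophospholipids and had 395, 368 and 407 normalized counts in the R98S clones, without a single read in any WT library. Its highest and lowest R98S clones differed by 1.11-fold, the smallest ratio of the set. *Fitm1* (chromosome 14, 55575617 to 55576954), which promotes the storage of fat in lipid droplets and is known from muscle, had 68.3, 47.5 and 63.6, again with no WT read. *Atp8b5*, a P4-ATPase that flips phospholipids between membrane leaflets, had 73.0, 42.6 and 41.3 and 1.57 to 3.30 in WT clones.

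Among secreted and surface proteins, *Tfpi* (chromosome 2, 84432855 to 84476775) encodes the Kunitz-type inhibitor of the tissue factor pathway of coagulation. It had 171, 77.0 and 353 normalized counts, with WT clone 28 at 5.37, WT clone 29 at 1.65 and WT clone 36 at 0. *Lgals7* (chromosome 7, 28863853 to 28866284), a galectin of stratified epithelia, had 209, 130.2 and 236, against at most 2.69 in a WT clone. *Ereg* (chromosome 5, 91074622 to 91093646), an EGF family ligand, had 73.0, 59.0 and 96.3 and no WT read. The R98S clones were thus ordered in the same way for these 3 genes, with clone 35 highest and clone 13 lowest. *Dsel* (chromosome 1, 111858702 to 111864918), a dermatan sulfate epimerase-like protein, went the other way, with 87.3 in clone 11, 63.1 in clone 13 and 31.8 in clone 35. *Tspear* (chromosome 10, 77686569 to 77887021), known from tooth and hair follicle development, had 28.6, 15.6 and 17.2. Both *Dsel* and *Tspear* were at 0 reads in WT clones. *Itih5*, an inter-alpha-trypsin inhibitor heavy chain, had a mean of 105, *Art5*, an ADP-ribosyltransferase, 44.7, and *Mpzl2*, an adhesion protein, 17.3.

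The junction, synapse and cytoskeleton genes are best known outside blood. *Dlg3* (chromosome X, 100767722 to 100818410), a MAGUK scaffold of synapses, had 192, 159 and 141 normalized counts. *Mapre3* (chromosome 5, 30814641 to 30866106), a microtubule plus-end binding protein enriched in brain, had 73.8, 69.6 and 64.5. *Trio* (chromosome 15, 27730651 to 28025848), a guanine exchange factor of small GTPases, had 29.4, 36.0 and 81.7. None of these genes had a read in any WT library, and their R98S clones were close to each other for *Dlg3* and *Mapre3* but not for *Trio*, where clone 35 stood above the others. *Lrtm2* (chromosome 6, 119315133 to 119330766), a leucine-rich repeat membrane protein, had 171, 188 and 110.0 and reads only in WT clone 29 (1.65). *Nrxn2*, a presynaptic adhesion protein, had 57.2, 77.8 and 43.0, with 2.69 to 4.12 in WT clones.

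Of the other enzymes, channels, receptors and chaperones, *Car5b* (chromosome X, 163976822 to 164027997), a mitochondrial carbonic anhydrase, had 64.3 in R98S clone 11, 265 in clone 13 and 375 in clone 35. The WT clones were at 2.35 to 2.69. Its R98S clones differed by more than those of most members, 5.8-fold from lowest to highest. *Best3* (chromosome 10, 116986314 to 117025040), a bestrophin chloride channel, had 49.2, 72.9 and 54.2 and no WT read. The others had lower levels. The mean was 44.9 for *Dnajb13*, a J-domain protein of sperm flagella and cilia, and 41.1 for *Emc9*, a subunit of the ER membrane protein complex. *Ppm1k*, the phosphatase that activates branched-chain ketoacid dehydrogenase, had 28.6, and *Tph1*, the hydroxylase of serotonin synthesis outside the brain, 28.1. *Nr5a1*, the steroidogenic nuclear receptor SF-1, had 26.1.

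Of the 11 uncharacterized or non-coding genes, *Gm973* (chromosome 1, 59516264 to 59636417) was the highest, with 333, 364 and 446 in the R98S clones against 5.37, 2.47 and 0 in the WT clones. *RP23-449N4.1*, for which no position was found, had 40.5, 33.6 and 713. That is a 21.2-fold range, the largest in the set, and its mean rests on clone 35. *2310030G06Rik* (chromosome 9, 50739691 to 50746536) had 60.3, 59.8 and 74.8 and no WT read. *Gm10451*, a lincRNA, had a mean of 147 and *BC064078*, a transcribed pseudogene, 145. *Fam71b* had 119.7, *4930539E08Rik* (current symbol *Bnip5*) 75.4, *4930500J02Rik* (the non-coding RNA *Platr14*) 41.3 and *BC049715* 32.3. *4930415O20Rik* had 24.6 and *A530032D15Rik*, one of several near-identical copies between which reads may be split, 24.1.

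The 3 R98S clones did not share one profile over the set. Clone 11 was the highest clone for 17 members, clone 13 for 7 and clone 35 for 17, and they were the lowest for 9, 17 and 15. Of 3534 tested genes outside the set in the same range of R98S means, clone 11 was highest for 31.7%, clone 13 for 35.2% and clone 35 for 33.1%. The ratio of the highest to the lowest R98S clone had a median of 1.83, was at most 2 for 25 members and above 3 for 4, among them *RP23-449N4.1*, *Car5b* and *Tfpi*, named because they exceeded that limit. The SD of log2 counts over R98S clones had a median of 0.45, compared with 0.31 in the same 3534 genes, and 30 members lay above 0.31. Leaving out R98S clone 35 in the rule gave 67 genes in place of 41.

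**Figure D2:**
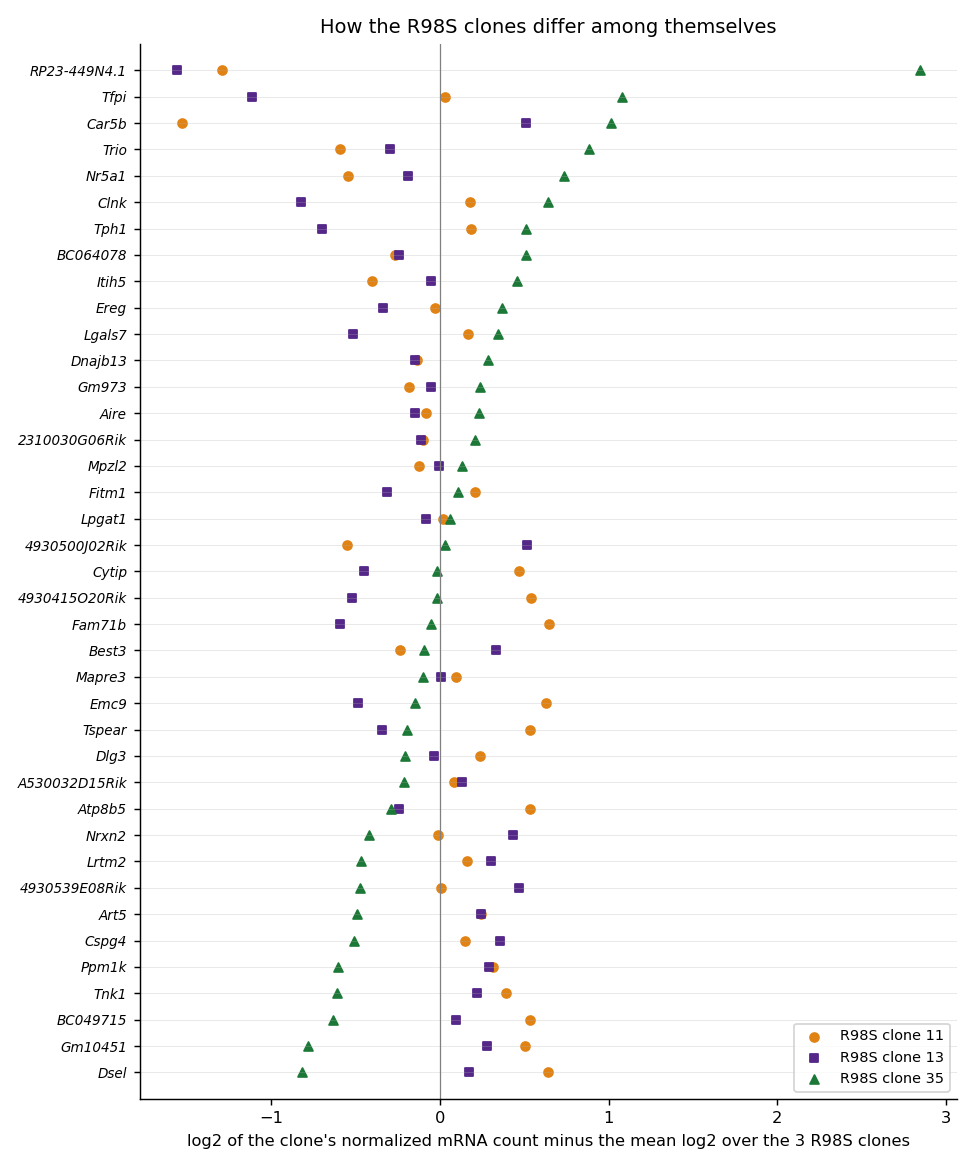
For the same 39 genes, log2 of the normalized mRNA count in each R98S clone minus the mean log2 over the 3 R98S clones, ordered by clone 35. Clone 35 ran from far above the others (*RP23-449N4.1*, 713 counts against 40.5 and 33.6) to below both (*Dsel*, 31.8 counts), while *Lpgat1* and *Mapre3* stayed near 0 in all 3 clones.

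Footprints could be examined for 1 member. The RPF table lists 10080 genes, all of them with a read in every one of the 6 libraries, so a gene without footprints in a single WT clone is left out of it. *Cspg4* was listed and the other 40 were not, compared with 77.1% of the 3534 genes of the same R98S range that were listed. Of 8776 genes with a read in at least 1 mRNA library and at 6 or below in all WT mRNA libraries, 101 were listed. The missing rows therefore say nothing about whether the other 40 transcripts were translated in R98S clones.

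*Cspg4* (chromosome 9, 56865033 to 56899870) encodes NG2, a large chondroitin sulfate proteoglycan of pericytes and glial progenitors. In mRNA sequencing, R98S clones 11, 13 and 35 had 99.2, 115 and 62.8 normalized counts of it and WT clones 28, 29 and 36 had 2.69, 3.30 and 5.49. Its normalized RPF count was 40.4, 46.9 and 43.7 in the R98S clones against 1.91, 1.04 and 5.27 in the WT clones, with 26 to 76 reads behind each R98S value and 1 to 4 behind each WT value. Every R98S clone was above every WT clone, which gives p = 0.1 in an exact two-sided permutation test, the smallest value that 3 against 3 allows. On the scale of log2(normalized count + 1), its RPF was higher by 3.74 (standard error 0.51, adjusted p = 0.00494, limma). The gene was chosen for high R98S and low WT mRNA in the same clones. Its RPF reached the mean of 10 required for testing through the R98S clones, whose mean was 43.7 against 2.74 in the WT clones. Without that filter the adjusted p was 0.00246 (limma). Over all 9580 tested genes, RPF was higher for 300 (3.13%) and lower for 443 (4.62%) at an adjusted p under 0.1. The *Cspg4* call held without any single clone (adjusted p from 0.00667 to 0.0343, limma). All these fits used the gene and clones of the selection, so their p-values cannot separate the rise from that selection.

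Within a clone, log2 of the *Cspg4* footprints minus log2 of its mRNA was -1.28, -1.27 and -0.51 in R98S clones 11, 13 and 35, with a mean of -1.02 (SD 0.44, n = 3). Over 9450 genes the median of this ratio was -1.67, and 76.1% of them lay below *Cspg4*. The tables were normalized separately, so this ratio can be set only against that of other genes.

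**Figure D3:**
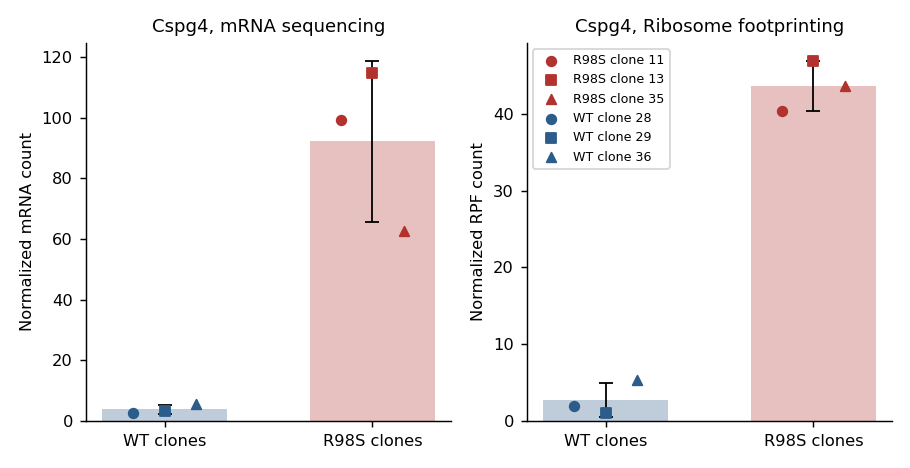
Normalized counts of *Cspg4* in mRNA sequencing (left) and ribosome footprinting (right); bars are means, error bars SD over 3 clones and symbols single clones. In RPF the R98S clones range from 40.4 to 46.9 and the WT clones from 1.04 to 5.27.

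The members were spread over the genome. The 40 with a GENCODE position lay on 15 chromosomes, with 5 each on chromosomes 2 and 6, and 37 were protein-coding. Chromosomes 3, 8, 13, 16 and 18 held none. The median log2 fold change of all tested genes was -0.29 on chromosome 3 and -0.22 on chromosome 8, the 2 lowest of any chromosome. It was between -0.02 and -0.08 on the other chromosomes without a member. A link between these medians and the placement of the members was not tested. Some members lay within 500 kb of each other. *Fitm1* and *Emc9* on chromosome 14 were 4.56 kb apart on opposite strands, and *Tspear* and *Aire* on chromosome 10 were 143 kb apart. For both *Fitm1* and *Emc9*, clone 11 was the highest and clone 13 the lowest R98S clone.

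Several members share exon bases with a gene on the other strand, and the strand setting of the counting is not given in the sources used here. The largest shares were 34.1% of the exon bases of *BC049715* with *Smco3*, 30.7% of *Mpzl2* with *Gm48840*, 26.8% of *Tnk1* with *Plscr3*, 11.2% of *Fitm1* with *Gm15932* and 11.2% of *Dnajb13* with *Ucp2*. *Gm15932* had means of 2.41 in R98S and 0.797 in WT clones, whereas 3 partners were abundant in both genotypes. *Plscr3* had means of 483 in R98S and 560 in WT clones, *Ucp2* 2194 and 2071, and *Smco3* 275 and 211. The member next to each had at most 11 reads over the WT libraries, a low level that the rule required. Sharing of reads between the strands was not tested.

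Genes next to the members were examined in the mRNA fit, which did not use them to choose the set. Over all 11344 tested genes, mRNA was higher in R98S clones for 344 (3.03%) and lower for 443 (3.91%) at an adjusted p under 0.1 (limma). Within 100 kb of 37 members lay 141 tested genes, of which 14 were higher (9.93%) and 5 lower (3.55%). Their median log2 fold change was 0.11, and 0.07 when the median of each gene's chromosome was subtracted, compared with 0.01 over all tested genes. The higher share rests on few regions and clones. The surroundings of *Tnk1* (4 of 15 tested neighbors) and of *Fitm1* and *Emc9* (3 of 14) gave 7 of the 14, and without these regions 7 of 112 were higher (6.25%). Without R98S clone 11 the count was 2 of 141 (1.42%, against 1.15% of all genes), without R98S clone 13 it was 3 of 140 (2.14%, against 1.17%), and without WT clone 36 it was 3 of 141 (2.13%, against 1.48%). Without WT clone 29 it was 6 (4.26%, against 2.52%). Leaving out R98S clone 35 gave 10 (7.09%, against 3.32%), and leaving out WT clone 28 gave 18 (12.8%, against 4.33%). In RPF, 14 of 126 tested neighbors were higher (11.1%, against 3.13% of all genes) and 4 lower (3.17%, against 4.62%). Leaving out 1 clone gave 5 to 17 RPF calls higher, the lowest being 5 of 126 without R98S clone 13 (3.97%, against 0.680%), and 6 of 126 without R98S clone 11 or WT clone 36 (4.76%, against 0.783% and 1.31%). Of the 19 neighbors called in mRNA, *Rusc2*, *Zfp518b*, *Tmem27* and *Nek6* kept the call in every alternative. The other 15 lost it without R98S clone 11, 14 of them also without R98S clone 13, 13 without WT clone 36 and 10 without WT clone 29. *Chrnb1*, *Coa4*, *Gmpr2* and *Hspa2* also lost it when no filter on low values was used.

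Around *Tnk1*, the neighbors that rose were *Kctd11* (log2 fold change 1.55, standard error 0.41, limma adjusted p = 0.0750), *Tmem102* (1.51, 0.37, 0.0536), *Chrnb1* (1.14, 0.32, 0.0940) and *Polr2a* (0.86, 0.23, 0.0781), the last encoding the largest subunit of RNA polymerase II. *Tmem102* had 171, 242 and 93.7 in R98S clones 11, 13 and 35 against 48.3 to 60.2 in the WT clones, and its RPF rose as well (3.24, adjusted p = 0.00521, limma). All 4 genes were highest in clone 13. None of these mRNA calls held without R98S clone 11, R98S clone 13 or WT clone 36 (adjusted p up to 0.330, limma), while the RPF call of *Tmem102* held without any single clone. Around *Fitm1* and *Emc9*, *Psme1*, a subunit of the PA28 proteasome activator, rose by 0.63, *Dhrs4* by 0.73 and *Gmpr2* by 0.62 (adjusted p from 0.0677 to 0.0890, limma). The call of *Gmpr2* was lost without any 1 of the 6 clones and without the filter, and those of *Psme1* and *Dhrs4* without any 1 clone other than WT clone 28 (adjusted p up to 0.309, limma). *Psme1* shares 14 exon bases with *Emc9*. *Fitm1*, with a bound of at least 57.0-fold, was chosen on its mRNA difference, so these folds cannot be weighed against it.

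Next to *Atp8b5*, *Rusc2* (log2 fold change 1.47, adjusted p = 0.0185) and *Cd72* (1.30, adjusted p = 0.0349, limma) were higher in mRNA and in RPF. The RPF calls of both were lost without R98S clone 11, R98S clone 13, WT clone 28 or WT clone 36. For *Rusc2* this was also so without R98S clone 35. The mRNA call of *Cd72* was lost without R98S clone 11, R98S clone 13 or WT clone 36. *Cacna2d4*, a calcium channel subunit whose span holds *Lrtm2*, had 19.8, 36.9 and 13.8 normalized counts in R98S and 2.35 to 5.37 in WT clones (log2 change 2.24, adjusted p = 0.0677, limma), a call lost without R98S clone 11, WT clone 29 or WT clone 36 (adjusted p up to 0.208, limma). *Zfp518b*, 21.6 kb from *Clnk*, lay between 150.4 and 247 in WT clones and between 456 and 489.7 in R98S clones, with an adjusted p of 0.0145 (limma). The remaining neighbors that rose were *Coa4* near *Dnajb13*, *Hspa2* near *Gm10451* and *Rinl* near *Lgals7*.

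The 5 neighbors that fell were *Tmem27* and *Siah1b* near *Car5b*, *Dnmt3l* beside *Aire*, *Nek6* near *Nr5a1* and *Rasgrp2* near *Nrxn2*. *Tmem27*, 60.8 kb from *Car5b*, was at 1.59, 1.64 and 3.44 in the R98S clones against 37.6, 44.5 and 92.5 in the WT clones (log2 change -4.13, SE 0.54, limma adjusted p = 0.00323). This is the reverse of the pattern of *Car5b* itself. *Dnmt3l*, a cofactor of DNA methyltransferases, overlaps *Aire* by 67 exon bases and had 64.5 to 68.0 in R98S and 137 to 255 in WT clones (log2 change -1.38, adjusted p = 0.0366, limma). Its call and that of *Rasgrp2* were lost without R98S clone 11 or 13 (adjusted p up to 0.177, limma).

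**Figure D4:**
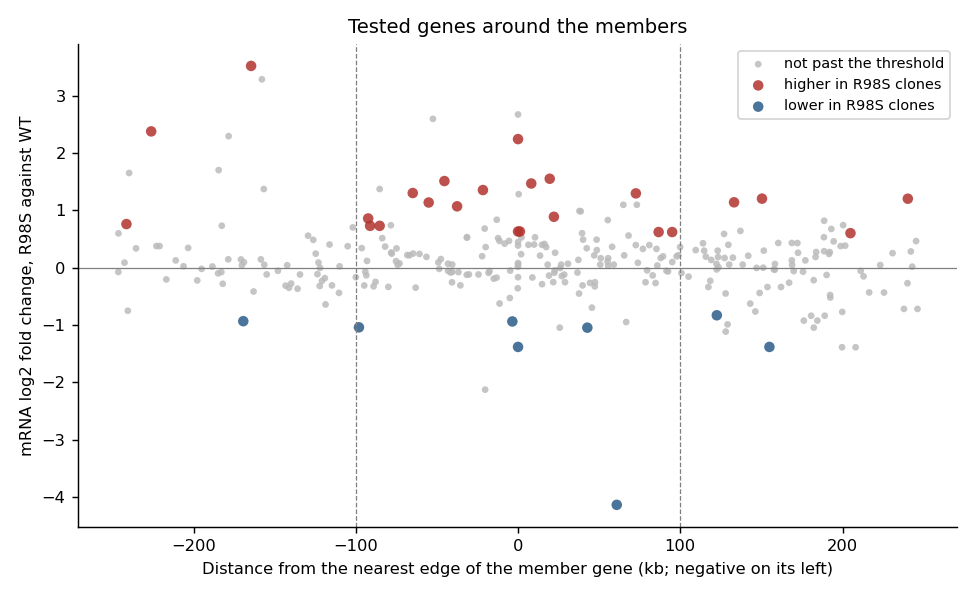
mRNA log2 fold change (R98S against WT) of tested genes outside the set against their distance in kb from the edge of the member gene, within 250 kb; red and blue points passed an adjusted p of 0.1 (limma), and dashed lines mark 100 kb. Most neighbors lie near 0, 14 genes within 100 kb were higher, and the lowest point is *Tmem27* at -4.13.

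Relatives of the members, such as paralogs and complex partners, showed what else of each family the cells made. For 26 members, 71 relatives were in the mRNA table, 43 of which were tested. Of these, 2 were higher (4.65%, against 3.03% of all tested genes), 3 were lower (6.98%, against 3.91%) and 38 did not pass, and their median log2 fold change was -0.03. For 17 of the 26 members, a relative was above 100 normalized counts in WT clones. *Mapre1*, a paralog of *Mapre3*, had means of 4208 in R98S and 4359 in WT clones, and *Dlg1*, a paralog of *Dlg3*, 1647 and 1748. In contrast, *Dse* was at 0 in every library, as was *Tfpi2*, so that *Dsel* and *Tfpi* had no detected relative on the list.

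The relatives that passed did not all move with the member. *Lgals3*, like *Lgals7* a galectin, rose by 4.30 (standard error 0.27, adjusted p = 5.06e-05, limma), and *Dnajb5* by 1.69 (adjusted p = 0.0146, limma). *Atp8b4* fell by 2.51 (standard error 0.22, adjusted p = 0.000313, limma), lying between 192 and 230.4 in R98S and between 932 and 1393 in WT clones, while its paralog *Atp8b5* was in the set. *Tnk2* fell by 0.72 and *Lcp2*, which encodes SLP-76, by 1.25 (adjusted p = 0.0349 and 0.0186, limma). The *Tnk2* call was lost without R98S clone 11, R98S clone 13 or WT clone 36.

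**Figure D5:**
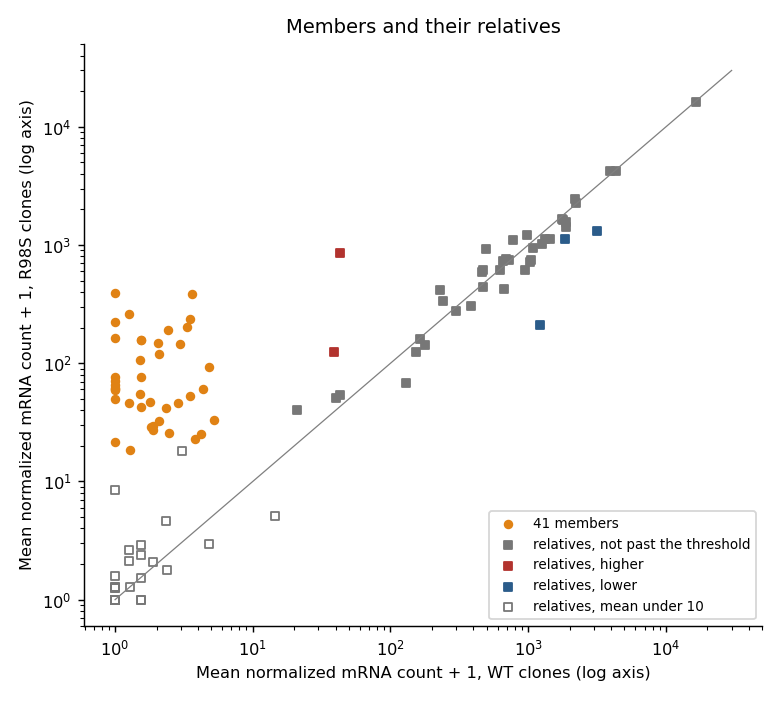
Mean normalized mRNA count plus 1 in R98S clones against WT clones (both log axes) for the 41 members (orange) and their relatives (squares); the line marks equal levels. The members lie along the left edge because the rule put them there, while tested relatives other than *Lgals3*, *Dnajb5*, *Atp8b4*, *Lcp2* and *Tnk2* did not pass the test.

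Wider pathway lists around the members differed in their calls. They were chosen with earlier results of these data known, so their shares are a description. None of 15 tested lysophospholipid acyltransferases other than *Lpgat1* passed in either direction, and neither did any of 18 tested cytohesin and ARF genes other than *Cytip* (limma). At an unadjusted p under 0.05 the limma counts were 4 and 1. At the adjusted threshold edgeR called 0 in both lists, and DESeq2 called 2 acyltransferases lower and no cytohesin or ARF gene. The shares of all tested genes at these settings are not set beside them, so these counts are not weighed here. The median log2 fold changes were -0.14 and -0.07. Of 17 tested adaptors and kinases around SLP-76 outside the set, 2 were higher (11.8%, against 3.03% of all tested genes) and 3 lower (17.6%, against 3.91%) in mRNA. *Lat2* had 396, 215 and 565 normalized counts in R98S and 37.6 to 99.0 in WT clones (log2 fold change 2.49, adjusted p = 0.0134, limma), and *Fyn* rose by 0.79 (adjusted p = 0.0432, limma), a call lost without R98S clone 11, R98S clone 13 or WT clone 36. The adaptors *Lcp2*, *Lat* and *Grap2* fell, and *Grap2* had 126 to 532 in WT clones and at most 6.55 in an R98S clone. *Clnk* was chosen for its presence in R98S clones, where it had a mean of 157 and *Lcp2* still had 1321. Of the 17 genes, 12 did not pass, and a link between these adaptors and *Clnk* was not tested. Of 9 tested MAGUK scaffolds other than *Dlg3*, *Cask* was lower (11.1% of the list, against 3.91% of all tested genes), at 2.38, 4.09 and 47.3 in R98S and 435 to 783 in WT clones (-5.93, adjusted p = 0.00477, limma).

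A list of Hedgehog pathway genes held no member, but 2 of its 10 tested genes were higher (20.0%, against 3.03% of all tested genes). The list was chosen with earlier results of these data known, so this share is a description and enrichment was not tested. *Smo*, the signal transducer of the pathway, had 167 to 317 in R98S and 63.5 to 73.4 in WT clones and rose by 1.83 (adjusted p = 0.0102, limma) in mRNA and by 1.27 (adjusted p = 0.0541, limma) in RPF. The RPF call was lost without R98S clone 11, R98S clone 13, WT clone 28 or WT clone 36.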

How the data were processed

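Ribosome footprinting and mRNA sequencing were measured in 6 Ba/F3 clones, 12 libraries. The deposited values have the unit signal: the authors counted reads per gene (reads aligned to mm10 with TopHat2 2.0.11, Bowtie2 and SAMtools per the submitters' processing notes) and divided each library by a DESeq2 size factor. For footprints, 3 technical replicates per clone were merged. Whole reads were recovered for 100% of values in every library.

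Here, genes with a mean of at least 10 were compared on log2(normalized count + 1) with limma 3.58.1 (R 4.3.3), which understates changes of low genes, with Benjamini-Hochberg adjustment over all tested genes and a threshold of 0.1. Fits were tested on simulated data. Single values were compared by exact permutation. Alternatives were edgeR 4.0.16 and DESeq2 1.42.0 on recovered reads, other scaling, pseudocounts, filters, library weights and each clone left out. Footprint and mRNA libraries were paired by the clone number in their labels.

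Members and lists were chosen with earlier results of these data known, and the relatives and roles from general knowledge once the members were known. Described in full were the 10 members with the highest R98S mean, those at 0 in all WT clones and those with listed footprints. Genes outside the set were named when they lay within 100 kb or on a list and passed the threshold; other relatives and the genes of the overlap and edge paragraphs were named after their values were seen. Positions come from GENCODE M21 (GRCm38). No promoter window was found for *BC064078*, *Best3*, *Ereg*, *Mpzl2*, *Nr5a1*, *Nrxn2*, *RP23-449N4.1* and *Tspear*, among others. Values of some single genes are not reported here. The mRNA was from a stranded kit, but the counting strand is not given in the sources used here.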

Additional observations from a re-analysis of the deposited data

How the results depend on the processing

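The number of members was 27 when R98S clones had to reach at least 30, and 45 to 67 when the rule used 5 clones (67 without R98S clone 35); the other limits gave 32 to 55. Over all genes, DESeq2 on recovered reads called 591 higher and 692 lower in mRNA and 469 higher in RPF, and library weights called 1454 higher and 1505 lower in mRNA and 882 and 917 in RPF. With each clone left out, mRNA calls ranged from 130 to 491 higher and from 182 to 622 lower, and RPF calls from 65 to 506 higher and from 164 to 642 lower. Among neighbors of members, library weights called 35 higher and 13 lower, 50 kb left 8 higher and 3 lower, and leaving out a clone gave 2 to 18 higher and 2 to 6 lower; the cause was not tested. The *Cspg4* footprint rise kept its direction and its call in all 13 alternatives, which used the clones that selected the gene. Its footprint to mRNA ratio, paired by clone, was -1.06 without the pairing (no replicate block). Of 779 refits of single named genes outside the set, 644 kept their call, 135 lost it and none changed sign. The depth of WT clone 28 limits how low a level can be told from 0, and footprints of 40 members were not analysed here.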
